A study of Homo sapiens with 24 samples.

Results

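The genes examined here encode the proteins of the mitochondrial ribosome. They were taken as the protein-coding genes of the GENCODE annotation on hg19 whose symbol is MRPL or MRPS followed by a digit, which gave 78 of 19756 genes (49 MRPL and 29 MRPS). MCF-10A is a human mammary epithelial line that is not transformed, and all cells used here carry ER-Src, in which v-Src is joined to the hormone-binding part of the estrogen receptor. Retroviral vectors were used to make stable lines that express S100A8-Flag or S100A9-Flag, beside the endogenous proteins. Each line was treated for 24 hours with 1 μM 4-hydroxytamoxifen (TAM), which turns on Src, or with ethanol (EtOH), and chromatin was cross-linked through proteins first and to DNA second before Flag ChIP-seq. The 11 ChIP libraries comprise, for S100A8-Flag, 2 replicates in EtOH and 3 in TAM, and for S100A9-Flag, 3 replicates in each treatment. The authors call the replicates biological, but nothing in the labels says that they were separate cultures. The p values therefore rest on differences between these libraries. The lists hold peaks and no RNA values, so the cell type was not checked against its markers.

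The mitochondrial ribosome translates the few mRNAs of the mitochondrial genome, which encode subunits of the respiratory chain and ATP synthase. All of its proteins are encoded in the nucleus, made in the cytosol, and imported. Some descend from bacterial ribosomal proteins, and others were added in the mitochondrial lineage. S100A8 and S100A9 are calcium-binding proteins, best known as secreted inflammatory cytokines, and have no DNA binding domain of their own.

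The deposited lists give, for each peak, its summit, its fold enrichment over the input of the same library, and a q value. A gene was called in a library if a peak with q ≤ 1e-07 has its summit no farther than 1500 bp upstream or 250 bp downstream from a transcription start site (TSS). The 78 genes have 264 TSSs. The numbers of peaks with q ≤ 1e-07 lie between 1853 (S100A9 EtOH replicate 2) and 4609 in the EtOH libraries and between 21518 and 40735 (S100A9 TAM replicate 3) in the TAM libraries. The lists give no read numbers, so a difference in depth and a difference in binding cannot be told apart, and each count of mitochondrial ribosomal protein genes is set beside that of all genes in the same library.

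The stretches of DNA below lie around the TAM summit with the lowest q value at 8 of the genes, on hg19 (GRCh37), and were read from the reference genome. MRPS23 and MRPL55 are shown because every library called them, MRPS31, MRPL34, and MRPL40 because their TAM peaks rank high, MRPL51 and MRPL48 for their motifs, and MRPL46 because its peak also lies at MRPS11. Each is the part of the 60 bp on either side of the summit that is free of exons of annotated protein-coding transcripts, written 5′ to 3′ on the strand of the gene. Other annotated transcripts, such as 1 of MRPS11 at the MRPL46 stretch, may extend into it. Capitals mark matches of the motifs ETS, KLF/SP1, and YY1 given further on.
MRPS23 (chr17:55927439-55927559, minus strand): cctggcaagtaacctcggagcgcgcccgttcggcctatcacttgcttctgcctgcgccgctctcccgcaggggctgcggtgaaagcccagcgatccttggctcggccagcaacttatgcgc
MRPL55 (chr1:228297014-228297081, minus strand): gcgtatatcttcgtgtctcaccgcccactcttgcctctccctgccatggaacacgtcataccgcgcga
MRPS31 (chr13:41345327-41345441, minus strand): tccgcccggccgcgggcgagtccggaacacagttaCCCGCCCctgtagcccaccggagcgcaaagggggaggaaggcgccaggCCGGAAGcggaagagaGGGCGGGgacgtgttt
MRPL34 (chr19:17416294-17416414, plus strand): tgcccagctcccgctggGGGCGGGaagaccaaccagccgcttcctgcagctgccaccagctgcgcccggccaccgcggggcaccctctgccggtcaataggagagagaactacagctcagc
MRPL40 (chr22:19419966-19420067, plus strand): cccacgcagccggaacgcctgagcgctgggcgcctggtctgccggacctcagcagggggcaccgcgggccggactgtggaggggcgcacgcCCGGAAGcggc
MRPL51 (chr12:6602462-6602552, minus strand): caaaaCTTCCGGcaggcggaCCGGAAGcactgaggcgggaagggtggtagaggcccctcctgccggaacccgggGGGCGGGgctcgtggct
MRPL48 (chr11:73499038-73499109, plus strand): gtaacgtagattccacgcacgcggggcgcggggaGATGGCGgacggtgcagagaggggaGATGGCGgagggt
MRPL46 (chr15:89010622-89010700, minus strand): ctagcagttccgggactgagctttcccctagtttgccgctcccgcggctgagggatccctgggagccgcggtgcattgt

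S100A8 and S100A9 peaks at mitochondrial ribosomal protein genes were found in every library, and in more of these genes after TAM. The EtOH libraries of S100A8 called 21 and 29 of the 78 genes, and its TAM libraries called 54, 50, and 53. The EtOH libraries of S100A9 called 20, 14, and 22 genes, and its TAM libraries called 62, 58, and 68. Thus, every TAM library called more of these genes than any EtOH library. As shares, these came to 32.1% ± 7.25 (SD, n = 2) for S100A8 in EtOH, 67.1% ± 2.67 (SD, n = 3) for S100A8 in TAM, 23.9% ± 5.34 (SD, n = 3) for S100A9 in EtOH, and 80.3% ± 6.45 (SD, n = 3) for S100A9 in TAM.

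The same rise is seen over all protein-coding genes. For S100A8, all genes were called at 11.4% and 12.2% in the EtOH libraries and at 40.1%, 35.6%, and 33.4% in the TAM libraries. For S100A9, they were called at 9.87%, 5.98%, and 11.5% in EtOH and at 37.8%, 38.7%, and 49.1% in TAM. The share of mitochondrial ribosomal protein genes was above that of all genes in each of the 11 libraries. It was 2.70 ± 0.311 times the all-gene share in the 5 EtOH libraries and 1.89 ± 0.151 times in the 6 TAM libraries (SD), and these ratios do not overlap (2.37 to 3.05 in EtOH, 1.73 to 2.10 in TAM). A share cannot exceed the whole group, so the highest possible ratio falls as the all-gene share rises. The lower ratios in TAM thus cannot be told apart from an effect of the longer lists.

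The treatments overlap once the lists have the same length. Where each list was cut to its 1853 peaks with the lowest q values, EtOH libraries called 12 to 17 of the 78 genes (mean 14.4 ± 1.82, SD, n = 5), and TAM libraries called 6 to 17 (12.5 ± 3.62, SD, n = 6). The lowest of these, 6 genes, is from S100A8 TAM replicate 3. In these top peaks, the mean share was 18.5% of the mitochondrial ribosomal protein genes in EtOH and 16% in TAM, against 5.77% and 4.65% of all genes. Hence, the higher share relative to all genes was seen in both treatments. Since the cut fixes the number of peaks, it cannot show whether TAM raises the number of called genes in general.

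**Figure D1:**
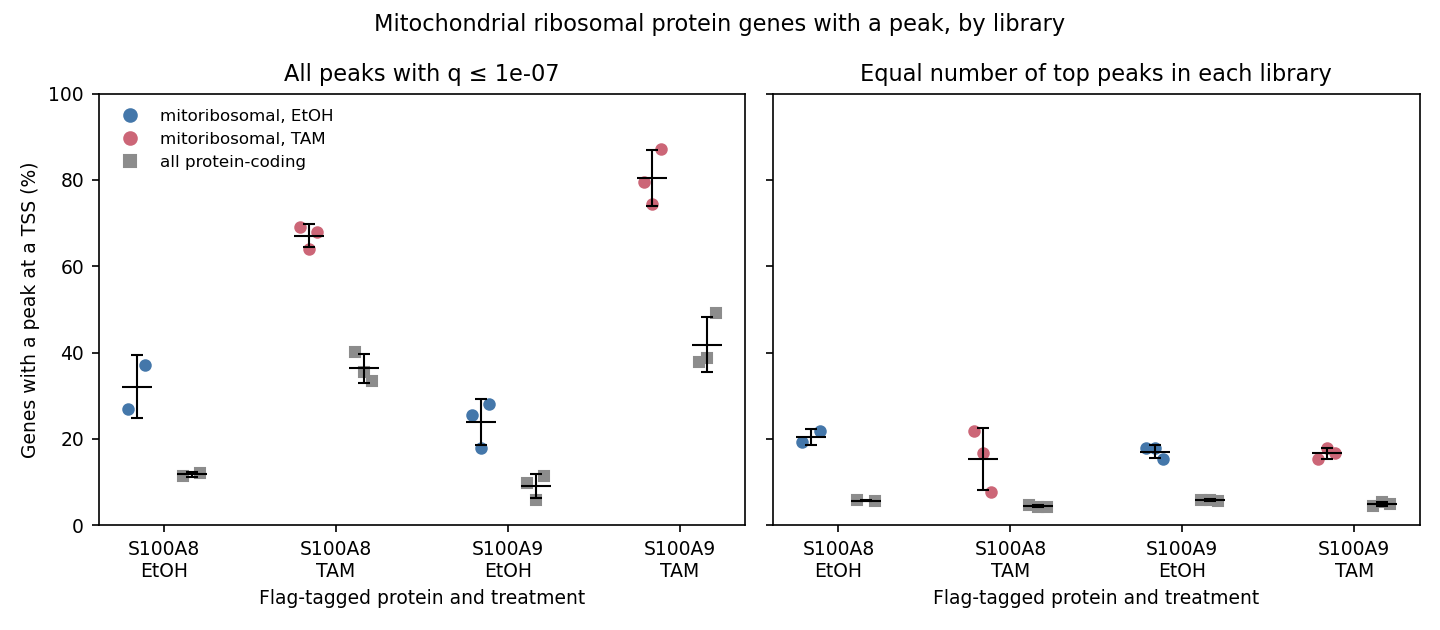
Share of mitochondrial ribosomal protein genes (circles) and of all protein-coding genes (squares) with a peak at a TSS, in percent, for each library by protein and treatment; bars are the mean ± SD of the libraries. At q ≤ 1e-07 (left) the circles lie at 17.9% to 37.2% in EtOH and at 64.1% to 87.2% in TAM, and with 1853 top peaks per library (right) the treatments overlap.

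Each of the 78 genes was called in at least 1 TAM library, compared with 60.8% of all genes. In EtOH, 48 of them were called in at least 1 library and 30 (38.5%) in none, whereas 70.9% of all genes were called in no EtOH library. All 6 TAM libraries called 21 of the 78 genes (26.9%), against 13.9% of all genes. At the other end, MRPL23, MRPL37, MRPL42, MRPL47, and MRPS36 were called in 1 TAM library each and in no EtOH library. Genes called in exactly 1 TAM library make up 6.41% of the 78 genes and 7.74% of all genes. MRPS36 is now also known as KGD4, a subunit of the α-ketoglutarate dehydrogenase complex, and its TAM peak is from S100A9 replicate 3, the longest list.

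Genes called in at least 2 replicates of a condition are termed confident, which for S100A8 in EtOH means both of its replicates. In EtOH, 16 of the 78 genes were confident for S100A8 (20.5%, against 4.62% of all genes) and 15 for S100A9 (19.2%, against 5.71%). In TAM, 60 were confident for S100A8 (76.9%, against 36.8%) and 67 for S100A9 (85.9%, against 43.1%). With 2 replicates left in place of 3, the S100A8 TAM count became 35, 39, and 36 without replicates 1, 2, and 3, and the S100A9 EtOH count became 6 without replicate 1 or 3. A gene then needs both remaining replicates, which is a stricter rule, and no such counts over all genes are given here. All 3 replicates called 25 of the 78 genes for S100A8 in TAM (32.1%, against 19.2% of all genes). For S100A9 in EtOH, they called 4 (5.13%, against 1.08%). Both proteins were confident at 55 of the genes in TAM (70.5%, against 31.5% of all genes). S100A9 alone was confident at 12 genes (15.4%, against 11.6%), S100A8 alone at 5 (6.41%, against 5.28%), and neither at 6 (7.69%, against 51.6%).

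MRPS23 and MRPL55 were the genes called in all 11 libraries, which is 2.56% of the 78 genes against 0.491% of all genes. MRPS23 is a small-subunit protein specific to mitochondria, and MRPL55 is the large-subunit homolog of bacterial L31. The fold enrichment at MRPS23 was 13.6 and 10.2 in the S100A8 EtOH libraries and 13.3, 12.1, and 13.4 in the S100A9 EtOH libraries. In the 6 TAM libraries, it had a lowest value of 7.82, a median of 12.2, and a highest value of 17.7, so that the treatments overlap. Its summits in TAM lie between −152 and −49 bp of the nearest TSS (negative upstream).

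MRPL55 varied more. Its fold enrichment was 13.6 and 7.39 for S100A8 in EtOH and 11.9, 11.7, and 12.7 for S100A9 in EtOH. In TAM, the lowest value was 4.11 (S100A8 replicate 3), the median 12.6, and the highest 18.4. Again, the TAM values lie on both sides of the EtOH values. The −log10 q value of MRPL55 nevertheless ranged from 9.01 to 73.5 in TAM, compared with 10.7 to 25.5 in EtOH.

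MRPL40, MRPL16, MRPL21, MRPL9, MRPL58, MRPS34, and MRPS35 were called in 4 of the 5 EtOH libraries, which with MRPS23 and MRPL55 makes 9 genes (11.5%) in at least 4 EtOH libraries, against 2.25% of all genes. MRPL9 and MRPL16 are homologs of bacterial L9 and L16. MRPL58, also known as ICT1, is a peptidyl-tRNA hydrolase that became a ribosomal protein. MRPS5, a homolog of bacterial S5, was the gene called in a larger share of EtOH libraries (3 of 5) than of TAM libraries (3 of 6), a pattern of 1.81% of all genes.

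**Figure D2:**
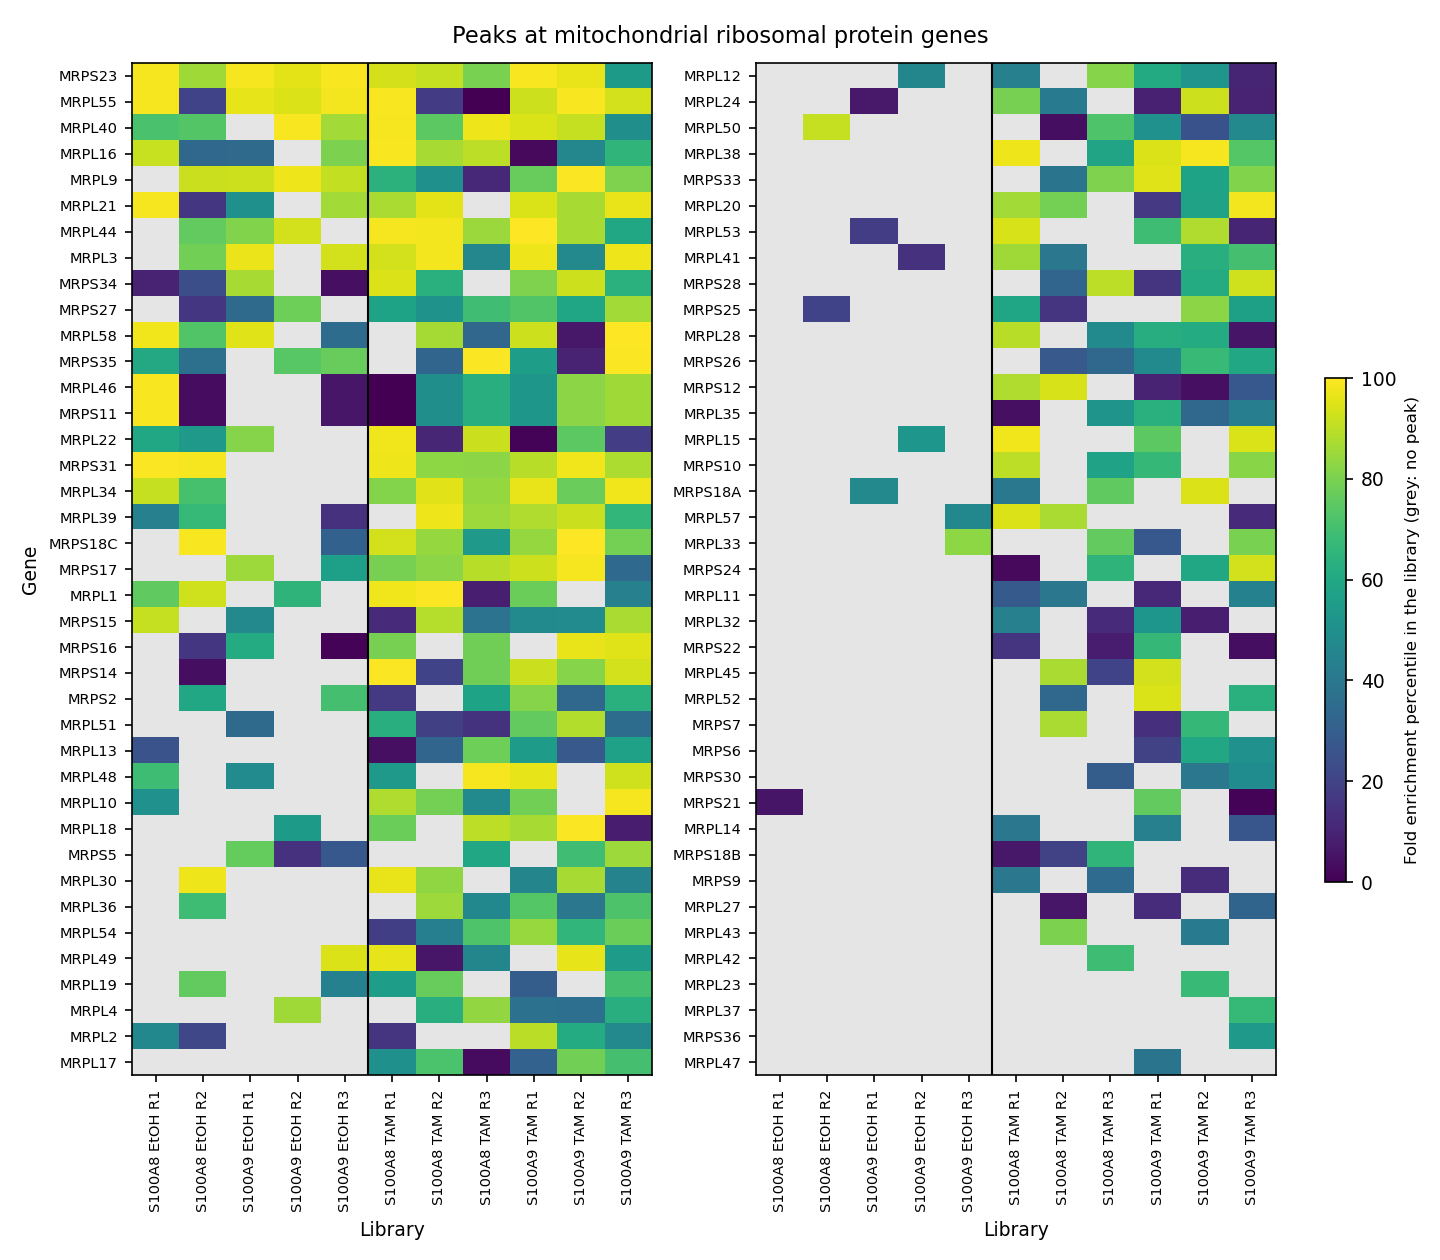
Peaks at the 78 mitochondrial ribosomal protein genes (rows, ordered by the number of libraries that called them) in the 11 libraries (columns, EtOH left and TAM right of the line). Color gives the percentile of the fold enrichment of the peak among all peaks with q ≤ 1e-07 of its library, and grey means no such peak; MRPS23 and MRPL55 are colored throughout, and 30 genes are grey in all EtOH libraries.

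The strength of a peak was described by the percentile of its fold enrichment among the peaks of its own library. Among the 21 genes called in all TAM libraries, the highest mean percentiles in TAM were 89.7 at MRPS31, 88.8 at MRPL34, 88.0 at MRPL44, 85.9 at MRPS23, and 84.4 at MRPL40. MRPL34 is the homolog of bacterial L34, MRPL44 carries a ribonuclease III-like fold, and MRPS31 and MRPL40 belong to the proteins added in mitochondria. The lowest were 42.5 at MRPL13, 49.1 at MRPL22, 49.4 at MRPL51, 50.9 at MRPL17, and 53.7 at MRPS15. Of these, MRPL13, MRPL17, MRPL22, and MRPS15 have bacterial homologs. A ranking by q value kept all 5 of the highest but 2 of the 5 lowest.

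MRPS31, of the small subunit, was called in 8 of 11 libraries. Its fold enrichment was 15.5 and 13.9 for S100A8 in EtOH, whereas the S100A9 EtOH lists gave 6.55, no peak, and 4.41, none of which passed q ≤ 1e-07. In TAM, the values were between 10.1 and 16.6 with a median of 11.5. Thus, S100A8 peaks at MRPS31 were as high in EtOH as in TAM (14.6, 10.2, and 10.1), and S100A9 peaks were higher in TAM (11.8, 16.6, and 11.2). MRPL34 showed a like pattern of calls, with fold enrichments of 10.7 and 9.16 for S100A8 in EtOH and of at most 6.92 for S100A9 in EtOH. The interaction of protein and treatment was not tested.

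Called genes ranked above the typical promoter peak. The median fold enrichment percentile of the called mitochondrial ribosomal protein genes was between 63.4 and 75.9 in the EtOH libraries and between 64.5 and 79.4 in the TAM libraries. For all called genes, it was between 51.0 and 56.4 in EtOH and between 58.7 and 63.4 in TAM. The median of these genes was the higher in each of the 11 libraries, by the smallest margin in S100A9 TAM replicate 3 (64.5 against 63.4).

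Large- and small-subunit genes were called at similar rates. The 51 large-subunit genes, which include MRPS18A and MRPS30, were called at 26.7% ± 5.65 in EtOH (SD, n = 5) and 73.2% ± 9.08 in TAM (SD, n = 6). The 26 small-subunit genes were called at 29.2% ± 10 in EtOH and 76.9% ± 8.77 in TAM. These values differ by less than the spread between libraries. The 46 genes with bacterial homologs (26.5% ± 7.11 and 75.7% ± 12.3) and the 31 specific to mitochondria (29.0% ± 6.84 and 72.6% ± 7.57) also differ by less than that spread. The compared groups come from the same libraries, and their differences within a library were not tested.

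To compare treatments gene by gene, the −log10 q value of the best peak in the window, or 0 where the list has none, was tested by exact permutation of the treatment labels within each protein. This value depends on depth, and the smallest two-sided p that the 200 arrangements allow is 0.01. It was higher in TAM on average for all 78 genes. With Benjamini-Hochberg adjustment over 19756 genes, 0 genes had an adjusted p of at most 0.05, and the smallest adjusted p was 0.063. In this exact test, 39 of the 78 genes (50%) had an unadjusted p under 0.05 and were higher in TAM, against 31.9% of all genes, and 0 were higher in EtOH, against 0.0% of all genes. At the smallest p were 20 of the 78 genes (25.6%, against 15.9% of all genes). If the adjustment is limited to the 14750 genes with a deposited peak in at least 1 library, these 20 have an adjusted p of 0.047. They are among 3138 of the 14750 genes that pass in this setting.

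MRPS14, a homolog of bacterial S14, had the largest difference of the 78 genes. Its −log10 q value was 0 and 7.84 for S100A8 in EtOH and 0, 0, and 4.48 for S100A9 in EtOH. In TAM, it was 37.4, 11.8, and 18.3 for S100A8 and 24.7, 21.1, and 40.6 for S100A9. The groups do not overlap, and the difference was 22.9 (exact permutation p = 0.01, adjusted p = 0.063).

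MRPL44, MRPL34, and MRPL17 were also at the smallest p, with differences of 18.0, 17.5, and 9.53. For MRPL17, the homolog of bacterial L17, every EtOH library had a weak peak, with −log10 q values of 5.08 and 4.80 for S100A8 and of 2.82, 6.42, and 6.30 for S100A9, so that it was called in 0 EtOH libraries. Its values in TAM were 12.7, 12.1, and 7.68 for S100A8 and 17.5, 17.0, and 20.7 for S100A9. Its groups do not overlap, although the weakest TAM value lies close to the threshold of 7.

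Each gene was also given its percentile by −log10 q among all genes of the library. Genes with no peak share a tied percentile that changes with the length of the list, so that the length of the lists still enters these values. The largest differences of TAM over EtOH were 48.3 percentile points at MRPS33, 44.3 at MRPS10, 38.7 at MRPS28, 38.6 at MRPL54, and 38.6 at MRPS14. MRPS33 and MRPS10 had no deposited peak in any EtOH list and deposited peaks in all 6 TAM lists. The largest differences the other way were −19.4 points at MRPS36, −15.9 at MRPL58, −11 at MRPL48, −9.17 at MRPL57, and −8.90 at MRPS16, with exact permutation p values from 0.17 to 0.62. The median difference was 6.63 points over the 78 genes and −3.29 over all genes. The latter includes genes with no peak in any list, whose tied percentile falls as the lists lengthen. The 78 genes include 0 of these.

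In the exact permutation test of these percentiles, 7 of the genes were higher in TAM with an unadjusted p under 0.05 (8.97%, against 4.84% of all genes) and 0 were lower (against 29.0% of all genes). MRPS33, MRPS10, and MRPL52 had an adjusted p of 0.0349. That adjustment rests on the tied genes, of which 5006 of 19756 have no peak in any list. The tied percentile of these 5006 genes falls as the lists lengthen, and 0 of the 78 genes are among them. The contrast of 0 with 29.0% therefore follows largely from the ties and is no result about the 78 genes. With 1 TSS per gene, 3 of the 78 genes were higher and 4 lower at an adjusted p of at most 0.05, and within 250 bp of a TSS or with fold enrichment as the measure, 3 were higher and 1 lower. Tied genes were then put at a percentile of 0, or the genes with no peak in any list were left out. In these settings, 0 of the 78 genes had an adjusted p of at most 0.05 (smallest adjusted p over all genes 0.46 and 0.227), and 11 or 7 had an unadjusted p under 0.05.

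Both proteins had peaks at most genes of this group in TAM. The TAM libraries of S100A9 called more of the 78 genes (74.4% to 87.2%) than those of S100A8 (64.1% to 69.2%), and the ranges do not overlap. The S100A9 TAM libraries also called more of all genes on average (41.9% ± 6.29 against 36.4% ± 3.41, SD, n = 3 each), and the ratios to all genes overlap (1.93 ± 0.165 and 1.85 ± 0.160). Without S100A9 TAM replicate 3, which has the longest list, the mean for S100A9 in TAM was 76.9%. In EtOH, the ranges of the proteins overlap (26.9% to 37.2% for S100A8, 17.9% to 28.2% for S100A9).

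No gene differed between the proteins after adjustment. In the exact permutation of the protein labels within each treatment, 0 genes had an adjusted p of at most 0.05, with a smallest adjusted p of 1.0. MRPS5 and MRPS6 were higher for S100A9 with unadjusted p under 0.05 (2.56% of the 78 genes, against 1.21% of all genes), and 0 were higher for S100A8 (against 0.658%). MRPS5 had −log10 q values of 9.97, 7.29, and 7.21 for S100A9 in EtOH, compared with 5.70 and no peak for S100A8. In TAM, its values were 6.72, 12.2, and 20.5 for S100A9 and 2.71, 5.43, and 10.2 for S100A8 (difference 6.17, exact permutation p = 0.04, adjusted p = 1.0). Its groups overlap in TAM but not in EtOH.

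MRPS6, a homolog of bacterial S6, was called in all 3 S100A9 TAM libraries and in no other. Its −log10 q values in these were 7.13, 10.9, and 9.91, and the S100A8 TAM lists gave 2.65, 0, and 0 (difference over both treatments 5.48, exact permutation p = 0.03, adjusted p = 1.0). MRPL53 was likewise called in a larger share of S100A9 than of S100A8 libraries, by 50 percentage points averaged over treatments. MRPS31, MRPL1, MRPL34, and MRPS18B lay 50 points the other way. MRPS18B was called in all 3 S100A8 TAM libraries, with −log10 q values of 7.15, 9.26, and 11.7, and in no other, where the S100A9 TAM lists gave 5.49, 4.98, and 3.02 (exact permutation p = 0.41, adjusted p = 1.0). At MRPL1, a homolog of bacterial L1, the −log10 q values for S100A8 were 10.4 and 14 in EtOH and 26.6, 33.6, and 11.5 in TAM, and those for S100A9 were 3.79, 9.97, and 5.64 in EtOH and 19.9, 3.85, and 17.3 in TAM. The groups of MRPL1 overlap in TAM (exact permutation p = 0.09, adjusted p = 1.0).

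Peaks at the mitochondrial ribosomal protein genes lie close to the TSS. In TAM, 345 pairs of a called gene and a library had a median summit position of −43 bp (interquartile range −103 to −3, negative upstream), and 72.5% were within 100 bp of the TSS. The pairs of all genes had a median of −65 bp, with 55.9% within 100 bp. In EtOH, the median was −22.5 bp for the 78 genes (82.1% of 106 pairs within 100 bp) and −56 bp for all genes (55.4%). Exceptions are MRPS30, MRPL54, MRPL14, MRPL18, and MRPS12, with median summit positions of −1463, −1002, −872, −805, and −520 bp in TAM. The TSS of the divergent neighbor APBA3 is 990 bp upstream of that of MRPL54, so that the MRPL54 summits lie near the APBA3 TSS. MRPS30, the farthest, has no such neighbor within 1000 bp upstream.

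Summits also lay near each other across conditions. At the 70 genes called for both proteins in TAM, the distance between the best S100A8 and S100A9 summits had a median of 45 bp, and 52 pairs (74.3%) were within 100 bp. At the 48 genes called in both treatments, the EtOH and TAM summits had a median distance of 19.5 bp, and 41 (85.4%) were within 100 bp. Over all genes, these medians were 53 and 61 bp, and 66.0% and 62.7% were within 100 bp.

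**Figure D3:**
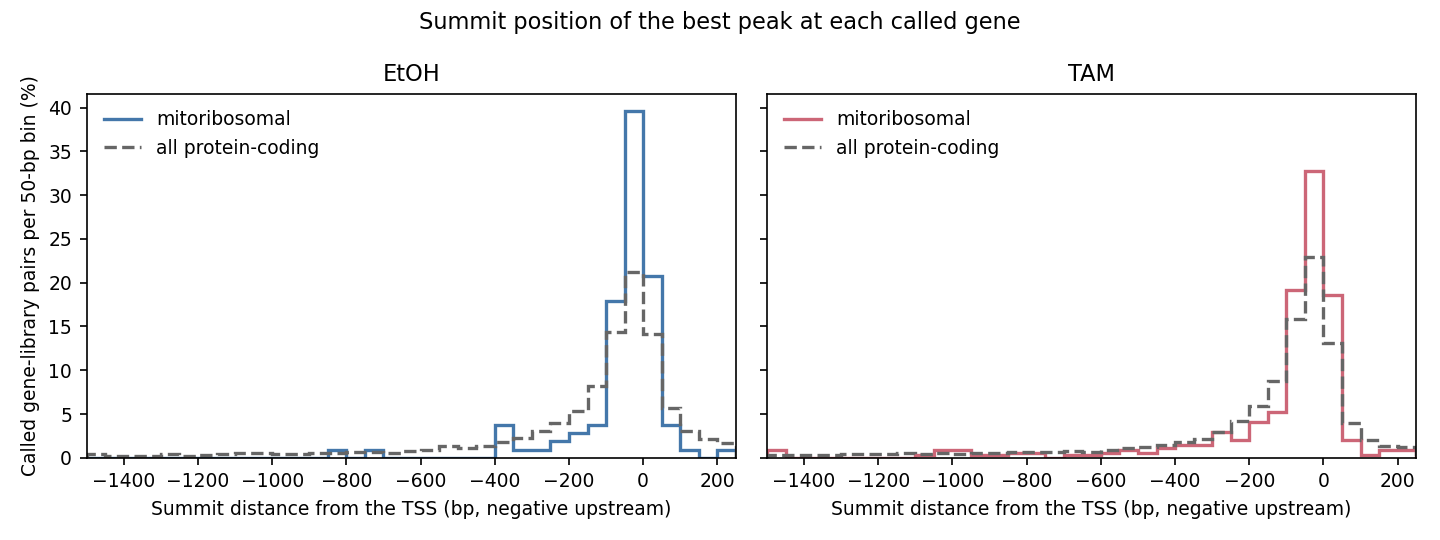
Position of the best peak's summit relative to the nearest TSS in bins of 50 bp, as the percentage of pairs of a called gene and a library, in EtOH (left) and TAM (right). Solid lines are the 78 mitochondrial ribosomal protein genes and dashed lines all protein-coding genes; both have their highest bin just upstream of the TSS, and the solid lines are higher there (median in TAM −43 against −65 bp).

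Many of these promoters are shared with another gene. A divergent TSS of another protein-coding gene lies within 1000 bp upstream at 26 of the 78 genes (33.3%), compared with 9.66% of all genes. Examples are MRPL21 and IGHMBP2 (59 bp apart), MRPL43 and TWNK (46 bp), which encodes the mitochondrial DNA helicase, and MRPS12 and SARS2 (181 bp), which encodes the mitochondrial seryl-tRNA synthetase. At 32 of the genes, the best TAM summit also lies in the window of another gene, so that the peak cannot be assigned to either gene alone. No such count over all genes is given here. In TAM, genes with a divergent TSS were called at 73.7% ± 8.57 and those without at 73.7% ± 10.7 (SD, n = 6). Over all genes, those with a divergent TSS were called at 66.4% ± 8.27 and those without at 36.8% ± 5.22.

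MRPL46 and MRPS11 share the best peak of a library, since their TSSs lie 320 bp apart on opposite strands, and their values are therefore identical. The summit of this peak is not at the same site in each library. In TAM, it lies from −357 to −1 bp of the nearest MRPL46 TSS and from −319 to 29 bp of the nearest MRPS11 TSS. With summits limited to 250 bp from a TSS, MRPL46 was called in 6 libraries and MRPS11 in 3. In the full window, a peak was called in 3 of 5 EtOH and all 6 TAM libraries, with −log10 q values of 21.4 and 7.18 for S100A8 and 3.46, 3.95, and 7.98 for S100A9 in EtOH. In TAM, they were 8.07, 13.9, and 16.4 for S100A8 and 13.7, 18.2, and 35.2 for S100A9 (exact permutation p = 0.15, adjusted p = 0.316). The treatments overlap at this promoter. In a further setting, each peak was given only to the gene with the nearest TSS. A summit downstream of that TSS was kept if its distance was under 5% of the gene length. In this setting, 74 of the 78 genes were still called in at least 1 TAM library, 15 in all 6, and MRPL18, MRPL50, MRPL52, and MRPS12 in no library. No such counts over all genes are given here. The mean share called per library under this rule was 2.73 times that of all genes in EtOH and 1.80 times in TAM. The calls of MRPL21 then fell from 4 to 0 EtOH libraries and from 5 to 1 TAM libraries.

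Motifs were sought on both strands within 50 bp of the best TAM summit, and set beside 10489 genes called in at least 2 TAM libraries. The letters CCGGAAG of ETS factors were found at 21 of the 78 genes (26.9%, against 10.9%), and GATGGCG of YY1 at 10 (12.8%, against 3.48%). MRPL46 and MRPS11 share a summit, so that its YY1 match, which is not within the printed stretch, counts for both genes. The letters GCATGCG of NRF1, a known regulator of nuclear genes for mitochondrial proteins, were found at 4 genes (5.13%, against 2.36%). The GC box GGGCGGG of KLF/SP1 factors was found at 14 (17.9%, against 22.5%), and the CCAAT box (CCAAT) at 6 (7.69%, against 10.2%). A match describes the letters at a summit and not the binding of a factor.

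The remaining motifs were rare. TGACGTC of CREB was found at 2 genes (2.56%, against 3.02%), the E-box CACGTG at 2 (2.56%, against 4.72%), ACTACAA of THAP11 at 1 (1.28%, against 1.80%), and TCTCGCG of ZBTB33 at 1 (1.28%, against 2.87%). The AP-1 motif (TGACTCA or TGAGTCA) was found at 0 of the 78 genes, against 3.95% of all called genes. No motif of the 10 contains another. A total of 27 genes had none of them, among them MRPS23, and 9 had at least 2.

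Among the printed stretches, MRPL51 has facing ETS motifs, MRPS31 has an ETS motif beside a GC box, and MRPL48 has repeated YY1 motifs. The 21 genes with an ETS motif were called on average in 25.7% of EtOH and 69.0% of TAM libraries, and the 57 without in 27.7% and 75.4%. The 14 genes with a GC box were called in 24.3% and 86.9%, and the 64 without in 27.8% and 70.8%. The 10 with a YY1 motif were called in 32.0% and 78.3%, and the 68 without in 26.5% and 73.0%. These differences were not tested.

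**Figure D4:**
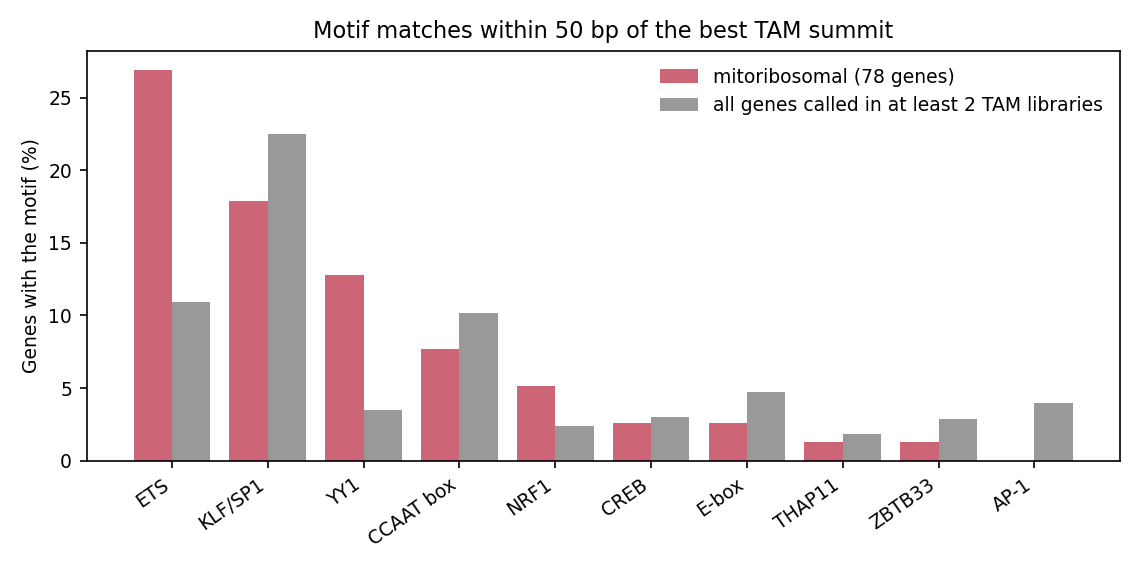
Percentage of genes with a motif within 50 bp of the best TAM summit, for the 78 mitochondrial ribosomal protein genes (red) and for 10489 genes called in at least 2 TAM libraries (grey). ETS is the tallest red bar (26.9% against 10.9%), YY1 is also above grey (12.8% against 3.48%), and AP-1 has no red bar.

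Other genes of mitochondrial translation had peaks at similar rates in TAM, whereas their rates in EtOH varied. The 5 mitochondrial ribosomal protein genes with other names (DAP3, PTCD3, AURKAIP1, CHCHD1, and GADD45GIP1) were called at 24.0% ± 8.94 in EtOH (SD, n = 5) and 80.0% ± 17.9 in TAM (SD, n = 6). The 16 genes of translation factors and mRNA-binding proteins were called at 37.5% ± 12.5 and 77.1% ± 11.6, the 22 of mitochondrial aminoacyl-tRNA synthesis at 13.6% ± 9.64 and 68.9% ± 9.28, and the 25 of ribosome assembly at 20.8% ± 7.69 and 70.0% ± 14. Every gene of these lists was called in at least 1 TAM library, compared with 60.8% of all genes. In the exact permutation test of treatment, 3, 5, 12, and 15 of these genes were higher in TAM with an unadjusted p under 0.05 and 0 were lower, where the share over all genes is 31.9%. TUFM, the mitochondrial elongation factor Tu, was called in all 6 TAM and in 2 EtOH libraries with a mean percentile of 89.8 in TAM, similar to MRPS31.

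Genes of other large complexes were also called more often than genes at large. The 87 cytosolic ribosomal protein genes were called at 18.9% ± 3.31 in EtOH and 71.5% ± 8.77 in TAM, the 50 proteasome genes at 18.4% ± 3.29 and 69.0% ± 10.3, and the 87 respiratory chain genes at 15.9% ± 6.26 and 60.9% ± 10.5. The mitochondrial ribosomal protein genes (27.2% ± 6.87 and 73.7% ± 8.49) had the highest mean of these 4 groups in both treatments. In TAM, the differences from the cytosolic ribosomal protein and proteasome genes are smaller than the spread between libraries. The groups come from the same libraries, and differences within a library were not tested. All-gene shares were 10.2% ± 2.49 in EtOH and 39.1% ± 5.44 in TAM.

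**Figure D5:**
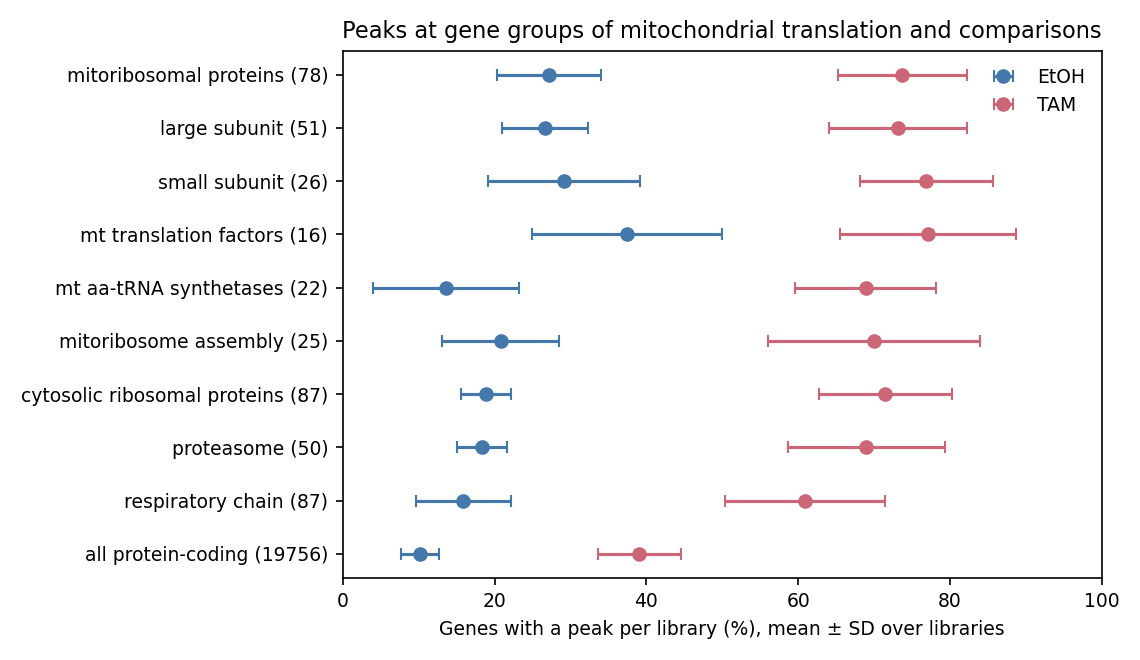
Percentage of the genes of a group with a peak per library, as the mean ± SD of 5 EtOH libraries (blue) and 6 TAM libraries (red), with the number of genes in parentheses. All groups lie to the right of all protein-coding genes (10.2% in EtOH and 39.1% in TAM), and mitochondrial ribosomal protein genes lie at 27.2% and 73.7%.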

How the data were processed

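Flag ChIP-seq peak lists of 11 libraries were used. Pol II and RNA data were not used here. The authors mapped reads to hg19 with Bowtie2, and MACS2 was run on every library with its own input as the control. The versions are not given in the sources used here. The deposited fold enrichment of a peak is a ratio to that input, and the deposited −log10 value is that of its q value as the authors' MACS2 gave it. The lists reach q = 0.05, and their depth is unknown, so no interval that needs depth is given.

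Peaks on chromosomes 1 to 22 and X were assigned to all protein-coding TSSs of GENCODE 44 lifted to GRCh37. The members and gene lists were chosen with earlier results of these data known, so that no test was run over the members as a group. The cytosolic ribosomal, respiratory chain, and proteasome genes were taken by symbol. Single genes were tested by exact permutation over libraries (two-sided by doubling the smaller tail), with Benjamini-Hochberg adjustment over all genes. The test was tried on simulated data with known changes. Named genes were chosen by rule: those called in all or no libraries, the 5 highest and 5 lowest in TAM percentile among those in all TAM libraries, those more often called in EtOH, the 5 with the largest difference between proteins in calls (ties broken by the −log10 q difference), those that share a peak, and the 5 largest rises and falls in rank. Other genes named as examples or counted in sets of at most 9 were chosen after their values were seen. Motifs were exact letters in the reference genome. Alternatives were other q thresholds, equal numbers of peaks, other windows and TSSs, peak overlap, other measures, a replicate block, and the omission of each library. Python 3.11.15, numpy 2.4.6, and pandas 2.3.3 were used.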

Additional observations from a re-analysis of the deposited data

How the results depend on the processing

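The depth of the libraries is unknown, and it limits every count at a fixed q value. In EtOH, the mean share of the genes called was 14.6% at q ≤ 1e-10, 59.5% with every deposited peak, and 18.5% with equal numbers of top peaks, and in TAM it was 59.8%, 93.2%, and 16%. The ratio to all genes under these settings was 3.88, 1.79, and 3.20 in EtOH and 2.21, 1.62, and 3.43 in TAM, so that its order between the treatments turns around with equal numbers of peaks. Within 250 bp of a TSS, the TAM share was 65.2% and the EtOH ratio 3.10, and with 1 TSS per gene the TAM share was 63.2% and the ratios 3.32 in EtOH and 2.14 in TAM. The nearest TSS alone, with the limit on downstream summits given above, gave a TAM share of 62.4%. Each share and ratio changed by less than the spread between libraries with peak overlap in place of summits. Leaving out 1 library gave shares of 24.7% to 29.5% in EtOH and 71.0% to 75.6% in TAM and ratios of 2.61 to 2.78 and 1.85 to 1.93.

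The count of 39 genes with an unadjusted p under 0.05 for treatment became 13 with calls as the measure, 21 with fold enrichment, and 26 to 35 without 1 library, and 26 is reached without S100A8 EtOH replicate 2 and without S100A9 EtOH replicate 2. After adjustment over genes with a deposited peak, 20 passed in place of 0, among 3138 of all 14750 such genes. For protein, the count of 2 became 1 within 250 bp, 0 with 1 TSS per gene or with calls, and 0 to 3 without 1 library (1 without S100A8 TAM replicate 1 or S100A9 EtOH replicate 1, and 0 without S100A8 EtOH replicate 1 or 2, S100A8 TAM replicate 2, S100A9 EtOH replicate 3, or S100A9 TAM replicate 2 or 3). For rank, the 3 adjusted calls became 0 among genes with a peak, 0 with tied genes at percentile 0 (chosen after seeing the data, with 11 at an unadjusted p under 0.05), and 0 without any 1 library, where 5 to 7 genes had an unadjusted p under 0.05. The adjusted calls for treatment and protein were 0 without 1 library. With the replicate number as a block, the smallest p is 0.0625, so that 0 genes could pass in any of these tests. Each library was also taken as its deviation from the mean of its condition. The correlation of these deviations was between −0.00414 and 0.0216 over 5 pairs of same-numbered EtOH and TAM libraries. It was between −0.031 and 0.0155 for pairs with different numbers. With 2 or 3 libraries per condition, these values cannot settle whether the numbers pair the libraries. The TAM summit median was −25 bp for the best peak per gene, and the mean percentile of 62.4 in TAM became 68.9 by −log10 q. Within 100 bp of the summit, KLF/SP1 motifs were found at 34.6% of the genes (39.6% of all called genes), CCAAT boxes at 16.7% (20.7%), NRF1 motifs at 10.3% (4.59%), ETS motifs at 32.1% (17.6%), and YY1 motifs at 14.1% (6.29%). THAP11 motifs, less frequent at these genes than at all called genes within 50 bp, were more frequent within 100 bp (6.41% against 3.08%). The causes of these changes were not tested.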
